A study of Mus musculus with 18 samples.

Results

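Of 40 gene symbols for glucose uptake, glycolysis, lactate export and targets of the hypoxia-inducible factors (HIF), 39 were rows of the deposited table of 16383 genes, and 38 reached the level needed for testing. Pkm is listed there under its older symbol, Pkm2 (ENSMUSG00000032294). The gene that was not tested was Slc2a3, a glucose transporter, which stayed at or below 0.124 CPM (a read count scaled to the size of the library) in 16 of 18 libraries and stood at 1.80 CPM in 42-3 first shRNA 1 and 8.99 CPM in the 42-2 first NT control. The rule is a list of symbols and uses no measured value.

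RNA was sequenced from 6 mouse pancreatic ductal adenocarcinoma (PDAC) lines grown from spontaneous metastases, after knockdown of Gstt1, a glutathione S-transferase. The 10 knockdown libraries (6 with Gstt1 shRNA 1, 4 with Gstt1 shRNA 2) and the 8 NT control libraries form 8 culture sets, each of knockdown and control from one line. Lines 42-3 and 6-2 came from lung and 42-2, G45-2, 6-3 and 13-2 from liver. The genotype labels name a SIRT6F/F allele in all lines but 13-2, and a p53F/+ or Tp53F/+ allele with the pancreatic driver p48 (written p48-Cre in the first 42-3 set and p48+ elsewhere) in every library, NT controls included. All cells were infected with lentivirus, kept under puromycin for 48 h and collected once they had been split. Whether a line is 1 clone was not stated, and libraries of one line are not separate animals. The limma p-values for knockdown and its interaction rest on how far single knockdown libraries vary in their difference from their own control. Both hairpins of 6-3 and of G45-2 enter as separate libraries against the same control, and sets of one line count as separate. The p-values between lung and liver controls rest on 6 line means, and those of the isoform ratios on the 8 sets.

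Glycolysis turns glucose into pyruvate in the cytosol, and lactate dehydrogenase and the lactate exporter Slc16a3 carry the excess out of the cell. In low oxygen HIF, an alpha subunit such as Hif1a or Epas1 with a constant partner, raises the transcription of glucose transporters, most glycolytic enzymes, the carbonic anhydrases, Vegfa and the prolyl hydroxylases that in turn mark HIF alpha for destruction. Sirt6, floxed in most of these lines, is a deacetylase known in mice to hold down HIF-driven glycolytic genes, and PDAC is known for its glycolytic and poorly oxygenated tissue.

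HIF binds DNA at a core read as ACGTG or GCGTG. RefSeq promoters (GRCm38.p6, from 250 bases before to 50 after a start site; the files were counted on mm9, so these positions do not belong with them) were found for 36 of the 39 genes. ACGTG, sought on both strands and also present within the E-box CACGTG, was in at least 1 promoter of 24 of 36 genes (66.7%), against 21.8% of 27025 genes with a promoter. GCGTG was also in a promoter of 24 of 36 (66.7%), against 35.2% of all genes. A match is a description of these letters and not a bound site. The promoters below belong to genes whose levels are followed in detail, and the capitals mark ACGTG or its reverse complement CACGT.
Aldoc, chr11:78322823-78323122, plus strand: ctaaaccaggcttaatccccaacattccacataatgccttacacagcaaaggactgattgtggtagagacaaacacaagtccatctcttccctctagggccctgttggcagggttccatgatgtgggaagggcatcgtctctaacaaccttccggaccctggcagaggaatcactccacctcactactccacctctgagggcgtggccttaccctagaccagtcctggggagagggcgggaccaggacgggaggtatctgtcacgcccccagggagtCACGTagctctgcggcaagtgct
Slc16a3, chr11:120948817-120949116, plus strand: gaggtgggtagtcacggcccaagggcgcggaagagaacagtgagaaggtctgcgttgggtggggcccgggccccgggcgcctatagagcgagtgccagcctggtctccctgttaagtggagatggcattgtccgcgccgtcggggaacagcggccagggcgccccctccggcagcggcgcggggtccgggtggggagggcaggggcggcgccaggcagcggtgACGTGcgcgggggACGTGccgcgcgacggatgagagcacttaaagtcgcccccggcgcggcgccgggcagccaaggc
P4ha2, chr11:54100674-54100973, plus strand: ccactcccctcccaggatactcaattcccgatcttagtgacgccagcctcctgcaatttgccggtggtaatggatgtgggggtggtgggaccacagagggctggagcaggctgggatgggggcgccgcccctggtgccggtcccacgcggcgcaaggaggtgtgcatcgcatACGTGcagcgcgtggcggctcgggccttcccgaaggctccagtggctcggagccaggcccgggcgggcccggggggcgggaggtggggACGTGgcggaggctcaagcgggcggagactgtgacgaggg
Bnip3, chr7:138909457-138909756, minus strand: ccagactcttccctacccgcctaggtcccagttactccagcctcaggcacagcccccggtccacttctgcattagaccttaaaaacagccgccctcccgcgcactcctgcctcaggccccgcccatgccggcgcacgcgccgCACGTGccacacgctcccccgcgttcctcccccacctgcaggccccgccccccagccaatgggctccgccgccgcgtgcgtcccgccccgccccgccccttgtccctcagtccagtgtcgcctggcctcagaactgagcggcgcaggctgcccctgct
Egln3, chr12:54203825-54204124, minus strand: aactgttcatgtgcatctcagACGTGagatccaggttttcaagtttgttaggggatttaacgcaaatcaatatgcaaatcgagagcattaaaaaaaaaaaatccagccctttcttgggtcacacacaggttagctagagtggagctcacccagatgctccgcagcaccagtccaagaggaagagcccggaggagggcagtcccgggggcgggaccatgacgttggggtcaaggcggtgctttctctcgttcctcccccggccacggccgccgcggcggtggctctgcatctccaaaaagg
Car12, chr9:66713436-66713735, plus strand: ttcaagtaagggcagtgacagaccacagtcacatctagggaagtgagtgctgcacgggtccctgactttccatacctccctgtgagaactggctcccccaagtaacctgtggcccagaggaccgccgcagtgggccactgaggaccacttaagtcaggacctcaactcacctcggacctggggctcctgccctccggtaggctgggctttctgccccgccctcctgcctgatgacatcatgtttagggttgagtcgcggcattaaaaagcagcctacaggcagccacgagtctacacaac
The motif occurs once in the Aldoc and Egln3 windows, 2 times in those of Slc16a3 and P4ha2, and in Bnip3 as one palindrome read 2 times, once on each strand. Aldoc had 2 promoters, of which 1 holds ACGTG, and that one is shown. The other genes shown had 1 promoter each. The Car12 window holds neither ACGTG nor GCGTG. Counts of GCGTG, left in lower case, were 3 in Bnip3, 2 in Aldoc, 2 in P4ha2 and 0 in Slc16a3 and Egln3.

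Facts of the libraries bear on every result. Depth was 8411436 to 25552912 reads, so that 3 reads correspond to 0.117 to 0.357 CPM. Gstt1 was at 0.613% to 14.0% of its own control in 8 knockdown libraries, at 54.5% in G45-2 shRNA 1 and at 75.4% in 6-3 shRNA 1. In line 42-2 these shares are near the floor: Gstt1 was at 0.373 CPM in the first shRNA 1 library and 0.0687 CPM, under 3 reads, in the second shRNA 2 library, against 2.67 and 0.616 CPM in their NT controls, where the other controls had 24.3 to 52.5 CPM. In 5 of 8 culture sets the libraries labelled knockdown and control differ in line-identity transcripts. The 5 sets are both 42-3 sets, 6-2, 13-2 and 42-2 first, which include all 3 lung sets. At least 2 of 7 transcripts (Y-linked genes, Xist, Cdkn2a and Cdkn2b) differ there by at least 10-fold, although the labels put both libraries in one line. In 13-2 and 42-2 first only Cdkn2a and Cdkn2b passed that limit. The 7 transcripts were counted one by one, linked genes included. Libraries were compared within a set only, not between sets of one line. Whether lines were exchanged or a line changed within itself was not tested. The count of genes called, the median change and the changes of some single genes are therefore also given without these 5 sets. Control and knockdown carry different library codes in lines 6-3 and 13-2. The summed level of 8 epithelial markers ranged from 265 to 7724 CPM in knockdown libraries and from 402 to 14715 CPM in NT controls, all 8 markers being present, and that of 7 fibroblast markers from 4.08 to 6452 CPM and from 5.79 to 2917 CPM. The summed levels of 5 macrophage and leukocyte, 6 endothelial, 2 hepatocyte and 2 lung epithelial markers reached at most 226, 12.7, 40.3 and 3.69 CPM in knockdown libraries and 875, 1.95, 12.1 and 2.28 CPM in NT controls. Cd14 alone was at 220 and 858 CPM in the libraries of the highest macrophage and leukocyte sums. Col3a1 alone was at 6083 and 2681 CPM in those of the highest fibroblast sums. Kdr, Tek and Vwf (endothelial) and Nkx2-1 (lung) stayed under 1 CPM throughout. Sirt6 itself was at 9.52 to 19.0 CPM in knockdown libraries and 5.78 to 19.0 CPM in NT controls, so reads of the gene were present in every library. A gene total does not show whether the floxed part of the gene is among these reads. Fewer cells of a kind and less RNA per cell cannot be told apart in such bulk libraries.

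Levels in NT controls, as CPM per kilobase of exon, set the enzymes in order. Ldha, which turns pyruvate into lactate, was highest at 853 ± 386 (SD, n = 8), followed by Pkm2 (pyruvate kinase) at 717 ± 155, Aldoa (aldolase) at 547 ± 156 and Tpi1 (triosephosphate isomerase) at 363 ± 84.2. The SDs of neighbours in that order overlap. Eno1 (enolase) was at 126 ± 71.3 and Gpi1 (glucose-6-phosphate isomerase) at 99.6 ± 31.5. Hk1 and Hk2, the hexokinases that trap glucose in the cell, were at 54.0 ± 11.1 and 18.7 ± 8.14, and Slc2a1, the main glucose transporter, at 52.7 ± 20.7. Neighbouring enzymes of the pathway stood far lower on this scale: Pgk1 (phosphoglycerate kinase) at 18.5 ± 6.44, Pgam1 (phosphoglycerate mutase) at 7.97 ± 1.58 and Gapdh at 5.89 ± 2.45. Gapdh, a gene of high abundance in most cells, had 2.01 to 17.3 CPM over the 18 libraries.

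Those low genes share sequence with pseudogenes. In the GENCODE vM21 transcripts, 68.0% of the 50-base windows of Pgk1, 58.4% of Gapdh, 49.5% of Eno1 and 41.5% of Pgam1 also occur in another gene, and for Gapdh the other genes include 215 pseudogenes. The share was 8.46% for Aldoa, 6.83% for Tpi1 and 10.4% for Ldha. It was 59.1% for Bnip3, 24.5% for Gpi1, 24.4% for Bnip3l and 23.7% for Pkm2, and 0% for Aldoc, Slc16a3, Egln3, P4ha2 and Car12. Rules for reads that match several places were not given in the sources used here. The levels of Gapdh, Pgk1, Pgam1, Eno1, Bnip3 and similar genes are therefore uncertain, and the part of shared sequence in their low values was not tested. Eno2, the neuronal enolase, was lower still in level, at 3.81 ± 7.81 CPM per kilobase, with 0.197% shared.

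**Figure D1:**
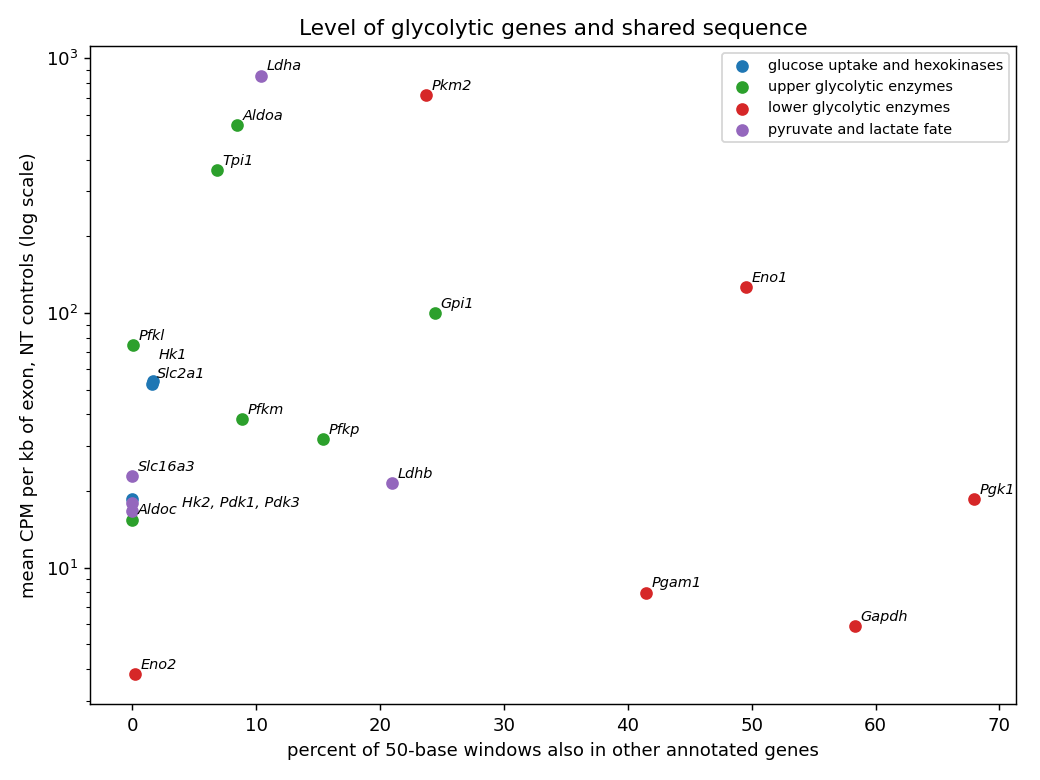
Each point is a gene of glucose uptake, glycolysis or lactate metabolism, coloured by role, with the percentage of its 50-base windows found in other annotated genes on the x axis and its mean level in 8 NT controls, in CPM per kilobase on a log scale, on the y axis. Gapdh, Pgk1 and Pgam1 sit at the lower right, with 41.5% to 68.0% shared and 5.89 to 18.5 CPM per kilobase, while Ldha, Aldoa and Tpi1 sit at the upper left.

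Whether loss of Gstt1 changes these genes was asked first. None of the 38 tested genes passed the threshold (limma on log2(CPM + 1), Benjamini-Hochberg adjusted p of 0.05 over 12931 genes), where 0.0387% of all tested genes did. Under an unadjusted p of 0.05 there were 5 of 38, all lower in knockdown, against 17.1% of all genes. The fitted change was below 0 for 28 and above 0 for 10 of the 38, where 53.0% of all genes were below 0. The median log2 change was -0.26, against -0.03 over all genes. Without set 6-3 the median over the 38 was -0.04, against -0.03 over all genes, and 21 of 38 were below 0. The edgeR test on recovered reads called 0 of the 38.

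The 5 genes of unadjusted p under 0.05 are spread over the pathway. Aldoc, the brain-type aldolase and a HIF target, had a lowest, median and highest level of 0.461, 4.43 and 44.3 CPM in knockdown libraries, against 5.77, 42.1 and 107 CPM in NT controls. It was lower than its control on average in 8 of 8 sets, a pattern that 2.43% of all tested genes share, but the groups overlap, and G45-2 shRNA 1 was above its control (44.3 against 34.9 CPM). Its fitted log2 change was -2.65 (SE 0.62, limma adjusted p = 0.101), and -2.23 (adjusted p = 0.458) without the 5 sets of differing identity.

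P4ha2, a collagen prolyl 4-hydroxylase subunit, was at 18.6, 53.8 and 108 CPM (lowest, median, highest) in knockdown libraries and at 47.6, 105 and 148 CPM in NT controls. Set means were lower in 7 of 8 sets, 13-2 being the exception, and the groups overlap. The change was -0.93 (SE 0.23, limma adjusted p = 0.112). Slc16a3, the lactate exporter MCT4, was at 0.0512, 36.3 and 179 CPM in knockdown libraries and at 28.8, 98.1 and 189 CPM in NT controls. Its lowest values were 0.0512 CPM in the 6-2 library labelled shRNA 1, against 108 CPM in its control, and 2.13 CPM in 42-2 second shRNA 2, against 84.4 CPM; it was higher in 13-2 (101 against 28.8 CPM). The change of -2.35 (SE 0.80, limma adjusted p = 0.181) moved to -0.93 (adjusted p = 0.626) when 42-2 second was left out besides the 5 sets.

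Pfkm, the muscle-type phosphofructokinase, was at 40.7, 64.8 and 78.0 CPM in knockdown libraries and at 51.4, 110 and 182 CPM in NT controls. It was lower in 7 of 8 sets and higher in G45-2. The change of -0.74 (SE 0.23, limma adjusted p = 0.159) was -0.24 (adjusted p = 0.793) without the 5 sets of differing identity. Bnip3l, a receptor for the removal of mitochondria, was at 22.2, 51.9 and 75.1 CPM in knockdown libraries and at 52.9, 77.0 and 84.4 CPM in NT controls, with a change of -0.57 (SE 0.21, limma adjusted p = 0.210) and 24.4% of its sequence shared. Egln3, a HIF prolyl hydroxylase induced by HIF, was at 24.9, 73.1 and 115 CPM in knockdown libraries and at 44.7, 78.4 and 245 CPM in NT controls (change -0.71, SE 0.34, limma adjusted p = 0.307). The Egln3 change was -0.45 (adjusted p = 0.391) without 42-2 first and -1.17 (adjusted p = 0.270) without the 5 sets and 42-2 second. For each of these genes the groups overlap.

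**Figure D2:**
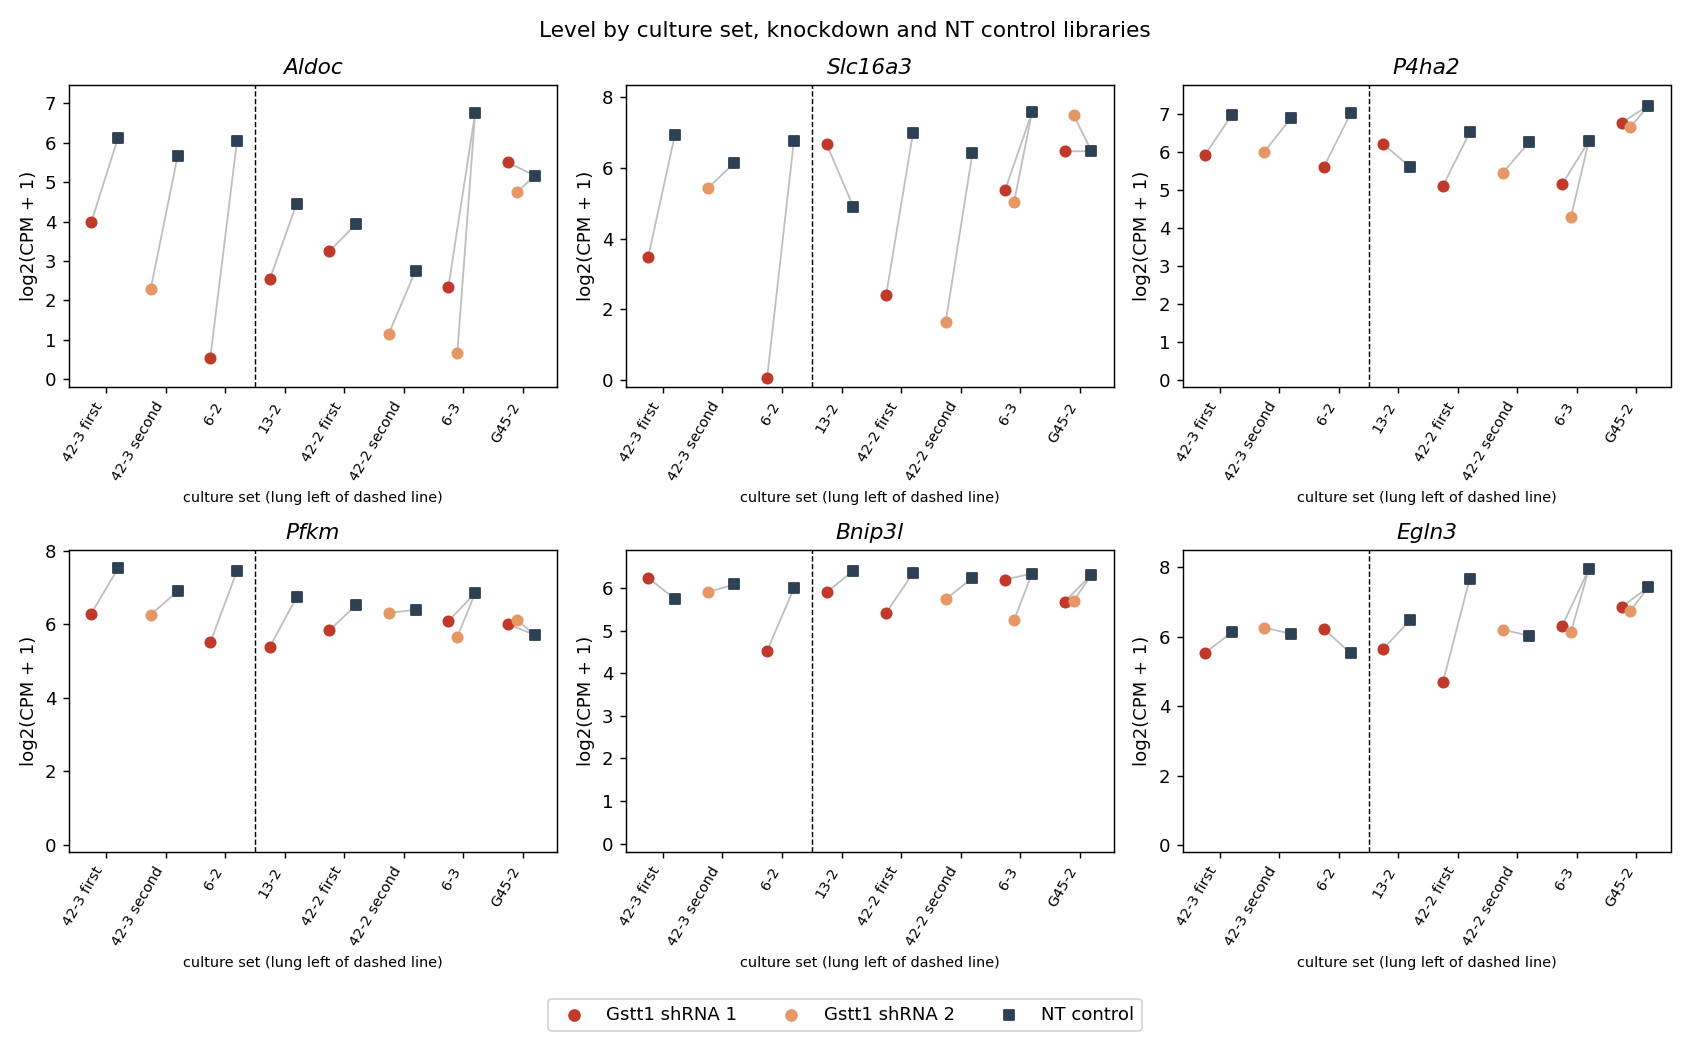
Level of 6 genes, as log2(CPM + 1), in the 8 culture sets, with knockdown libraries as circles left of the NT control square and a grey line joining each knockdown library to its own control. The line slopes up towards the control in nearly all sets for Aldoc and P4ha2, and Slc16a3 is near 0 in the 6-2 library labelled shRNA 1.

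Role by role, no group had a gene past the threshold under knockdown. The transporter and hexokinase group, which brings glucose in, held 3 tested genes, all with negative changes (median -0.12). Slc2a1 averaged 161 ± 55.5 CPM in knockdown libraries (SD, n = 10) and 172 ± 67.6 CPM in NT controls (n = 8), and Hk2 92.3 ± 44.8 and 105 ± 45.7 CPM. The upper enzymes, from Gpi1 to Tpi1, were negative in 7 of 7, with 2 (Aldoc and Pfkm) under an unadjusted p of 0.05. The lower enzymes, from Gapdh to Pkm2, split 3 and 3. Pkm2 averaged 2059.8 ± 484 CPM in knockdown libraries and 1864 ± 404 CPM in NT controls, and Pgk1 25.3 ± 12.3 and 33.8 ± 11.7 CPM. Ldha averaged 1641 ± 354 and 1616 ± 731 CPM.

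The genes that act around the pathway were as variable. Pfkfb3 and Pfkfb4, which make the phosphofructokinase activator fructose 2,6-bisphosphate, averaged 15.4 ± 10.2 and 9.97 ± 5.61 CPM in knockdown libraries, against 23.0 ± 17.4 and 16.0 ± 8.93 CPM in NT controls. The carbonic anhydrases Car9 and Car12, which regulate acidity at the cell surface, averaged 4.40 ± 5.54 and 5.21 ± 8.73 CPM, against 6.90 ± 9.63 and 17.9 ± 29.7 CPM. The SD exceeds the mean for both genes in both groups. Vegfa averaged 276 ± 134 CPM, against 341 ± 178 CPM, and Adm 2.22 ± 3.45 CPM, against 4.94 ± 8.82 CPM. Ankrd37 and Mxi1, a HIF target of little-known function and a MYC antagonist, averaged 7.26 ± 4.47 and 86.6 ± 42.3 CPM, against 10.0 ± 9.74 and 93.0 ± 12.6 CPM.

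The rest of the list did not pass the test either. Hk1 averaged 251 ± 91.3 CPM in knockdown libraries and 262 ± 53.6 CPM in NT controls (SD, n = 10 and n = 8), Pfkl 265 ± 90.3 and 279 ± 114 CPM, and Pfkp 144 ± 51.1 and 137 ± 62.1 CPM. Gpi1 averaged 289.9 ± 67.0 and 287 ± 90.9 CPM, Aldoa 885 ± 173 and 997 ± 284 CPM, and Tpi1 581 ± 146 and 641 ± 148 CPM. Among the lower enzymes, Eno1 averaged 227 ± 87.2 and 321 ± 182 CPM, Gapdh 10.1 ± 4.11 and 8.80 ± 3.66 CPM, and Pgam1 11.6 ± 4.40 and 14.1 ± 2.80 CPM. The kinases Pdk1 and Pdk3, which inhibit pyruvate dehydrogenase, averaged 117 ± 53.5 and 44.2 ± 32.2 CPM in knockdown libraries, against 93.3 ± 44.5 and 35.2 ± 28.3 CPM in NT controls. Bnip3 averaged 28.8 ± 14.7 and 44.2 ± 43.8 CPM, Ddit4 81.7 ± 71.7 and 73.1 ± 39.8 CPM, and Ndrg1, a stress-responsive growth regulator, 156 ± 53.5 and 151 ± 70.7 CPM. The oxygen-dependent hydroxylase Egln1 averaged 156 ± 19.1 and 164 ± 84.5 CPM, the collagen hydroxylase subunit P4ha1 152 ± 40.8 and 141 ± 70.9 CPM, and the histone demethylase Kdm3a 130 ± 52.7 and 123 ± 43.9 CPM.

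Neither hairpin alone gave a call. With shRNA 1, 0 of 38 passed (0% of all genes) and 6 had an unadjusted p under 0.05, all lower, against 16.1% of all genes (smallest limma adjusted p 0.186). With shRNA 2, 0 of 38 passed (0% of all genes) and 3 had an unadjusted p under 0.05, all lower, against 6.45% (smallest adjusted p 0.715). Between shRNA 2 and shRNA 1, 0 of 38 passed and 0 had an unadjusted p under 0.05, where 0% and 0.495% of all genes did. The edgeR test called none in any of these comparisons.

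The average hides large differences within single sets. In line 6-3 several hypoxia genes, chosen here after their values were seen, stood far below their control with both hairpins. Vegfa, the endothelial growth factor, was at 148 CPM with shRNA 1 and 163 CPM with shRNA 2, against 570 CPM in the NT control. Bnip3, a mitophagy receptor, was at 16.1 and 6.57 CPM, against 130 CPM. Car12 was at 4.61 and 0.250 CPM, against 84.2 CPM, and Adm, the vasodilator peptide adrenomedullin, at 2.94 and 0.166 CPM, against 26.2 CPM. Egln3 was at 77.7 and 69.2 CPM, against 245 CPM, and Aldoc at 4.05 and 0.583 CPM, against 107 CPM. Both libraries stood below the control for each of these genes. That control was also the highest of the 8 NT controls for each of them. The lowest NT control values were 164 CPM (Vegfa), 7.14 CPM (Bnip3), 0.135 CPM (Car12), 0 CPM (Adm), 44.7 CPM (Egln3) and 5.77 CPM (Aldoc). Whether the control was unusually high or the knockdown libraries low was not tested. Others differed less or not in one direction: Car9 was at 5.72 and 0.915 CPM, against 3.41 CPM, and the log2 differences with shRNA 1 were -0.14 for Bnip3l, -0.22 for Kdm3a and -0.29 for P4ha1. The target itself held 75.4% of its control level under shRNA 1 and 0.982% under shRNA 2.

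Counted over the list, 15 of 38 genes were at least 2-fold below the control in 6-3 shRNA 1, where 7.06% of all genes were, and 22 of 38 in 6-3 shRNA 2, where 15.6% of all genes were. None was at least 2-fold higher in either library, against 11.3% and 10.3% of all genes. This is 1 control and each library has no replicate. In the same set the summed level of 8 proliferation markers was 1936 CPM with shRNA 1 and 2148 CPM with shRNA 2, against 417 CPM in the NT control. That of 5 macrophage and leukocyte markers, of which 2 passed the filter on low values, was 123 and 104 CPM, against 875 CPM. Cd14 alone was at 107 and 102 CPM, against 858 CPM, and Cd68 at 10.4 and 2.33 CPM, against 16.3 CPM. Ptprc, Csf1r and Itgam were at or below 1.91 CPM in each library of this set. Epithelial markers summed to 7586 and 7724 CPM, against 13676 CPM. The control and the knockdown libraries of 6-3 also carry different library codes. The part of these differences in the result was not tested.

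**Figure D3:**
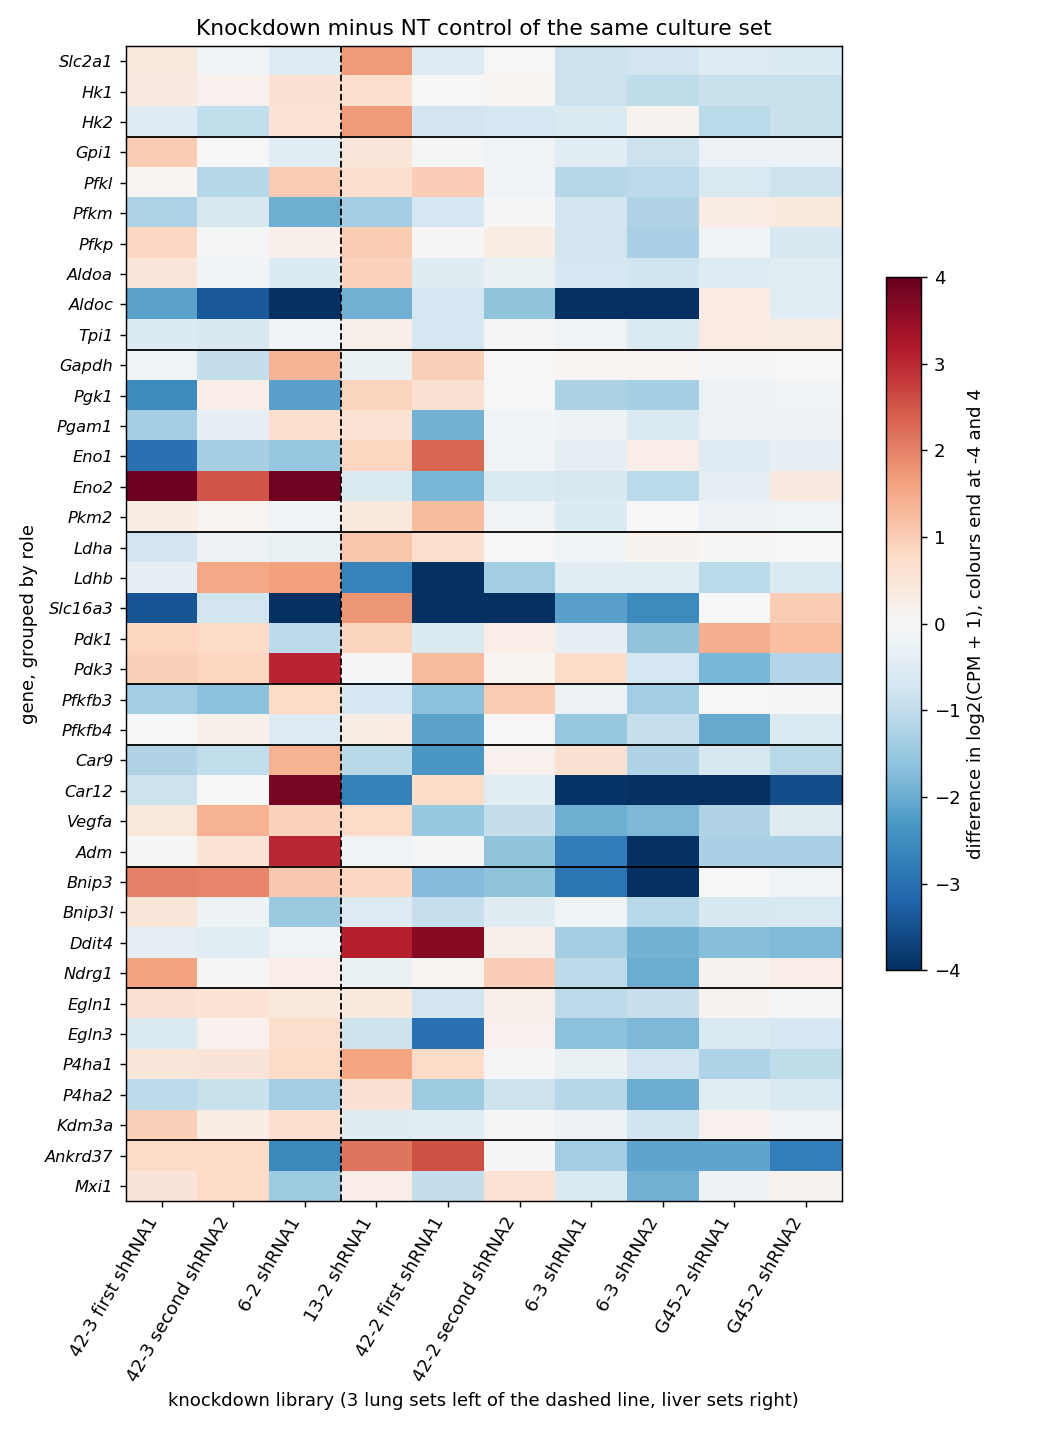
Difference in log2(CPM + 1) between each of 10 knockdown libraries (columns, lung sets left of the dashed line) and the NT control of the same set, for the 38 tested genes (rows, black lines between roles); blue is lower and red higher in knockdown. The 6-3 columns are blue in 35 and 34 of 38 genes, where 41.7% and 53.2% of all genes were below the control, whereas the lung columns are mixed.

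In G45-2, the other set with both hairpins, 29 of 38 genes were below the control with shRNA 1 (58.3% of all genes) and 29 with shRNA 2 (56.4%). At least 2-fold lower were 10 of 38 with shRNA 1 (12.4% of all genes) and 7 of 38 with shRNA 2 (10.5%). At least 2-fold higher were 1 and 2 of 38 (7.66% and 7.83% of all genes). Car12 was at 1.44 and 2.36 CPM, against 38.2 CPM in the control, Ankrd37 at 5.85 and 3.41 CPM, against 28.6 CPM, and Ddit4, a stress-induced inhibitor of mTORC1, at 42.6 and 40.9 CPM, against 140 CPM. Bnip3 differed little (46.2 and 41.7 CPM, against 46.1 CPM), as did Ldha (1888 and 1829 CPM, against 1817 CPM). Slc16a3 was at 87.5 and 179 CPM, against 88.0 CPM. Proliferation markers summed to 2135.5 and 2329.9 CPM, against 951 CPM.

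The remaining liver sets did not share one direction. In 42-2 second shRNA 2, 5 of 38 genes were at least 2-fold lower (5.71% of all genes) and 1 at least 2-fold higher (2.85%). The 5 lower genes were Slc16a3, Bnip3, Aldoc, Adm and Ldhb. Bnip3 was at 11.0 CPM, against 35.7 CPM, and Aldoc at 1.24 CPM, against 5.77 CPM. Adm was at 0.412 CPM, against 3.31 CPM, and Ldhb at 0 CPM, against 1.54 CPM. Vegfa (136 against 263 CPM) was lower there by less than 2-fold. In the 42-2 first library labelled shRNA 1, 11 of 38 were at least 2-fold lower (22.1% of all genes) and 5 at least 2-fold higher (22.6%). In the 13-2 library labelled shRNA 1, 5 of 38 were at least 2-fold lower (15.3%) and 8 at least 2-fold higher (10.5%). There Slc2a1 was at 289 CPM, against 88.0 CPM, Hk2 at 146 CPM, against 44.1 CPM, and Ddit4 at 265 CPM, against 29.6 CPM.

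Over the 3 sets under that limit of 2 of 7 identity transcripts (42-2 second and 6-3 with 0, and G45-2 with 1, Kdm5d), 19 of 38 genes were below the control in all 3, against 18.3% of all tested genes, and 0 were above it in all 3, against 13.9%. In a fit of these 3 sets alone 0 of 37 tested genes passed (0% of all genes), 14 of 37 had an unadjusted p under 0.05 (11.2% of all genes), and the median log2 change over the 37 was -0.51, against -0.02 over all genes. Without set 6-3 the median over all remaining sets was -0.04, against -0.26 with it, and 21 of 38 changes were negative, against 28 with it. Over all genes the median without set 6-3 was -0.03, so over the remaining sets the 38 genes were close to the background. Those remaining sets include the sets of differing identity. In set G45-2 alone the median over the 38 was -0.40, against -0.12 over all genes, with 30 of 38 lower (57.5% of all genes). In set 42-2 second alone the median was -0.09, against -0.02 over all genes, with 24 of 38 lower (52.5% of all genes). All 3 sets under that limit are from liver lines.

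**Figure D4:**
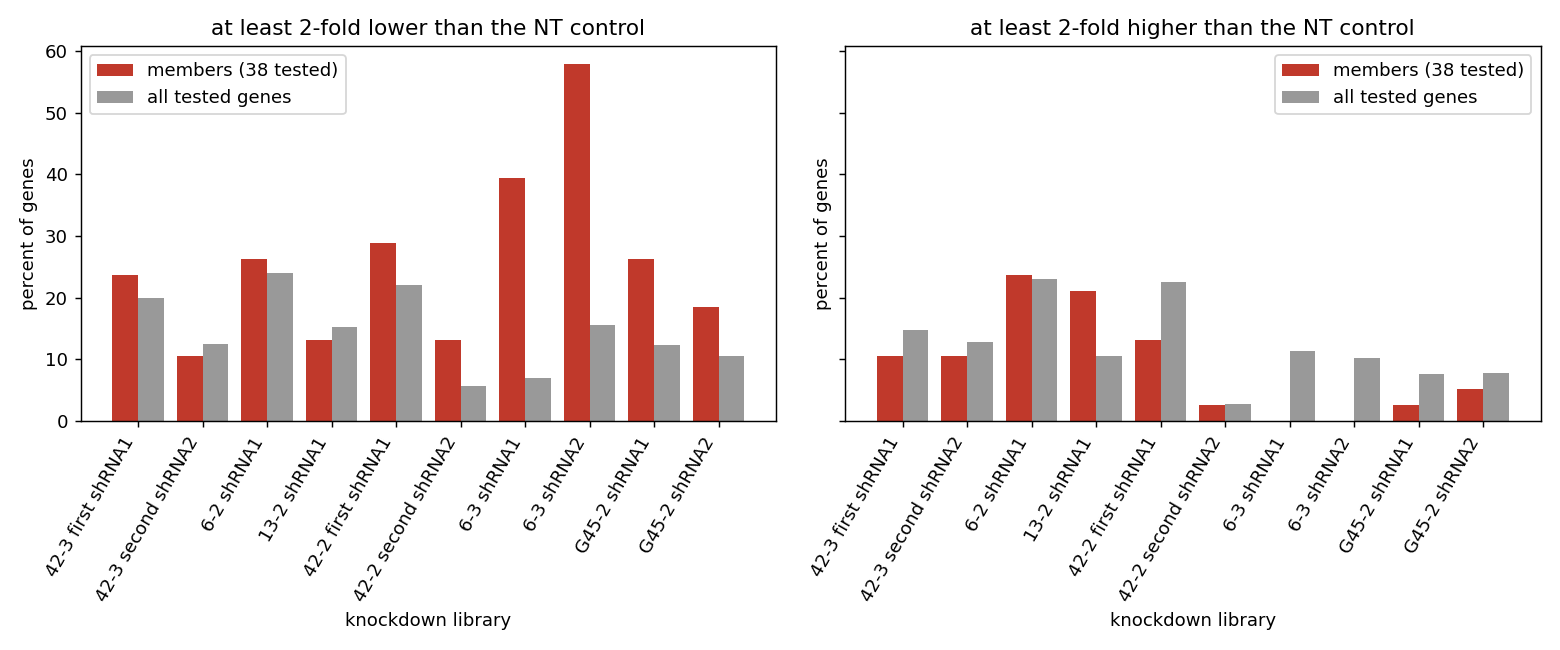
Percentage of the 38 tested genes (red) and of all 12931 tested genes (grey) that were at least 2-fold lower (left) or higher (right) in each knockdown library than in its own NT control. On the left the red bars stand above the grey ones in 8 of 10 libraries, all but 42-3 second and 13-2, and by most in both 6-3 libraries, which have no red bar on the right.

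In the lung sets neither direction prevailed. Among the 38 genes, 10 were above their control in all 3 lung sets, against 19.2% of all genes, and 8 were below it, against 21.8%. At least 2-fold higher were 4 of 38 in 42-3 first shRNA 1 (14.8% of all genes), 4 in 42-3 second shRNA 2 (12.9%) and 9 in 6-2 shRNA 1 (23%). At least 2-fold lower were 9, 4 and 10 of 38 (19.9%, 12.5% and 24% of all genes). These counts are close to the background.

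Whether the effect of knockdown differed between lung and liver lines was tested as an interaction. Each effect is taken from the control of the same set, so differences between lung and liver controls enter this test. Of the 38 genes 1 passed, Eno2, where 0.503% of all genes did, and 11 of 38 had an unadjusted p under 0.05 (19.7% of all genes), 10 of them with the higher change in lung sets. In lung sets Eno2 was at 15.2, 5.94 and 14.7 CPM in the libraries labelled knockdown, against 0.0736, 0.202 and 0.0671 CPM in their controls, where 3 reads correspond to 0.201 to 0.221 CPM. In liver sets it was at 4.52, 17.4, 5.70, 1.91, 1.17, 0.585 and 1.68 CPM in knockdown libraries, against 7.23, 64.0, 9.01, 3.54 and 1.09 CPM in NT controls. All 3 lung controls lie at or under 3 reads and the knockdown libraries above them, while in liver the groups overlap.

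The lung minus liver difference in the Eno2 effect was 4.17 on the log2(CPM + 1) scale (SE 0.55, limma adjusted p = 0.00709). It depends on the pseudocount, at 5.04 with 0.5 and 3.29 with 2, and the edgeR test also called it (7.43, a value that depends on the prior count, adjusted p = 0.0184). It did not pass without the block for culture set, which pairs libraries of one line (4.55, limma adjusted p = 0.105), nor without sets 6-3 and 13-2 (4.17, adjusted p = 0.109). All 3 lung sets are among the 5 of differing identity, so no value can be given without them. In those sets epithelial markers summed to 1446, 4493 and 1731 CPM in the libraries labelled knockdown, against 12227, 12713 and 14715 CPM in the controls, and fibroblast markers to 3877, 357 and 58.7 CPM, against 58.4, 13.9 and 49.6 CPM. The fibroblast markers did not move together. In 42-3 first Col3a1 was at 3625 CPM, against 0.0736 CPM, but Col1a1 at 32.3 CPM, against 55.7 CPM. In 6-2 Pdgfra was at 55.0 CPM, against 1.07 CPM, but Col1a1 at 2.10 CPM, against 40.7 CPM. In 42-3 second both Col3a1 (75.6 against 0.472 CPM) and Col1a1 (240 against 11.9 CPM) were higher. The part of these differences in the Eno2 result was not tested.

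The next genes did not pass. Eno1 was at 58.9, 253 and 147 CPM in lung libraries labelled knockdown, against 476, 634 and 420 CPM in their controls, so that the lung groups do not overlap, in the opposite direction to Eno2. Its difference in effect was -2.36 (SE 0.61, limma adjusted p = 0.0830). Vegfa was at 220, 429 and 355 CPM, against 165, 164 and 187 CPM, with a difference in effect of 1.84 (SE 0.53, limma adjusted p = 0.105). Bnip3 was at 38.0, 30.7 and 23.7 CPM, against 8.69, 7.14 and 10.6 CPM, with a difference in effect of 2.98 (SE 0.86, limma adjusted p = 0.105). For both, the lung knockdown values lie above the lung control values.

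**Figure D5:**
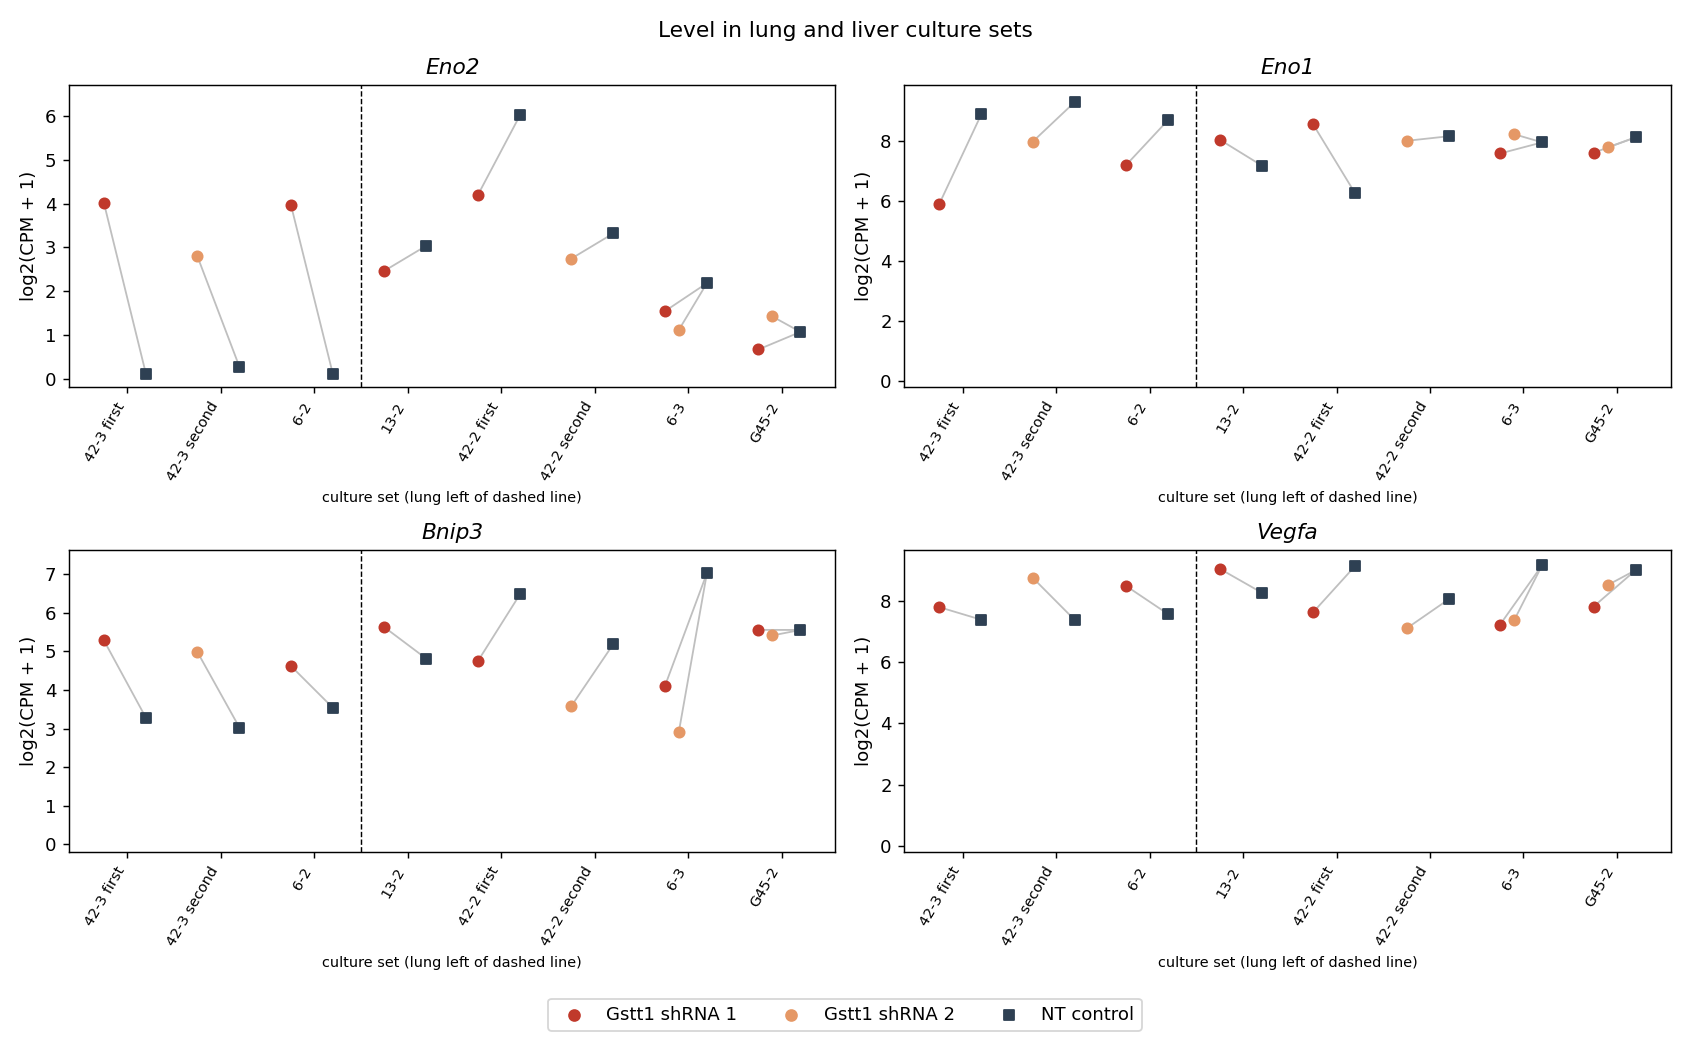
Level of Eno2, Eno1, Bnip3 and Vegfa, as log2(CPM + 1), by culture set, with knockdown circles left of the NT control square. In the 3 lung sets left of the dashed line Eno2, Bnip3 and Vegfa are higher and Eno1 lower in the libraries labelled knockdown, and in set 6-3 Bnip3 and Vegfa are lower in both knockdown libraries.

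Before knockdown, lung and liver lines were compared on the means of their NT controls (2 lung and 4 liver lines). The same control libraries are the reference in the interaction above, so both results share libraries and are not independent. None of the 38 genes passed, where 0.0309% of all genes did, and 8 had an unadjusted p under 0.05, against 13.1% of all genes. Bnip3 was at 8.69, 7.14 and 10.6 CPM in lung controls and at 27.0, 88.3, 35.7, 130 and 46.1 CPM in liver controls, without overlap (log2 difference -2.47, SE 0.57, limma adjusted p = 0.201). Of 14 alternatives it passed in 1, with control libraries fitted with a correlation within line (limma adjusted p = 0.0492). Vegfa was at 165, 164 and 187 CPM in lung controls and at 306, 560, 263, 570 and 509 CPM in liver controls, also without overlap (-1.29, SE 0.30, limma adjusted p = 0.201). Eno1 was at 476, 634 and 420 CPM in lung controls and at 146, 75.8, 287, 249 and 280 CPM in liver controls (1.28, SE 0.34, limma adjusted p = 0.239). Egln3 was at 68.5, 66.8 and 44.7 CPM in lung controls and at 88.3, 203, 64.0, 245 and 170 CPM in liver controls, where the groups overlap (-1.36, SE 0.42, limma adjusted p = 0.277). Eno2, called in the interaction, differed by -2.60 between lung and liver controls (SE 0.90, limma adjusted p = 0.313). For Bnip3, Vegfa, Eno1 and Eno2 this control difference has the opposite sign to the difference in effect.

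Controls labelled as one line could differ as much. In line 42-2 the second NT control differed from the first by at least 2-fold in 18 of 38 genes (26.3% of all genes), and in line 42-3 in 2 of 38 (14.6% of all genes). Ldhb, the heart-type lactate dehydrogenase, was at 190 CPM in the 42-2 first control and 1.54 CPM in the second, and Ddit4 at 10.0 and 68.9 CPM. The identity transcript Xist was at 0.0494 CPM in the 42-2 first control and 41.7 CPM in the second, and Col3a1 at 23.4 and 2681 CPM. Whether these controls hold the same cells was not tested. Among NT controls Mxi1, Bnip3l and Hk1 varied least, their highest value being 1.50, 1.60 and 1.67 times the lowest, while Eno2 spanned 0.0671 to 64.0 CPM, Ldhb 0.295 to 190 CPM and Car12 0.135 to 84.2 CPM.

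Ratios of isoforms were tested over the 8 sets with an exact two-sided sign-flip permutation test. The Hk2 to Hk1 ratio of CPM ranged from 0.113 to 0.976 in knockdown libraries (median 0.455) and from 0.209 to 0.848 in NT controls (median 0.402). Its change on the log2 scale averaged -0.25 ± 0.81 over the 8 sets (SD), with 6 of them lower (exact permutation p = 0.398, adjusted over both ratios 0.398, where 0.00781 is the smallest p possible). The Ldha to Ldhb ratio changed by 0.89 ± 2.43 (SD, n = 8 sets), higher in 5 of 8 sets (exact permutation p = 0.359, adjusted 0.398). Ldhb ranged from 0 to 9.41 CPM in knockdown libraries, with a median of 0.290 CPM, and from 0.295 to 190 CPM in NT controls, with a median of 1.14 CPM.

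Genes around the pathway gave the setting. Of 10 HIF subunits and regulators 0 passed under knockdown, with 5 higher and 5 lower. Epas1 (HIF-2 alpha) was at 0 to 2.62 CPM in knockdown libraries and 0 to 21.9 CPM in NT controls, a change of -2.10 (SE 0.48, limma adjusted p = 0.100) that was -1.08 (adjusted p = 0.565) without the 5 sets of differing identity, and Myc, a driver of glycolytic genes, changed by -0.70 (adjusted p = 0.259). Hif1a averaged 476 ± 253 CPM in knockdown libraries (SD, n = 10) and 363 ± 139 CPM in NT controls (n = 8), a change of 0.31 (adjusted p = 0.632). Of 28 further HIF targets 0 passed, 21 being lower and 7 higher (median -0.35 against -0.03 over all genes). Bhlhe40, a transcriptional repressor, averaged 223 ± 112 CPM, against 438 ± 237 CPM (change -0.99, limma adjusted p = 0.121), and Jmjd6 77.0 ± 28.1 CPM, against 102 ± 23.4 CPM. In the interaction, 1 of the 28 passed, Ak4, a mitochondrial adenylate kinase, at 14.5, 8.68 and 36.0 CPM in lung knockdown libraries and 4.34, 0.0674 and 2.41 CPM in their controls (3.05, SE 0.59, limma adjusted p = 0.0492). Ak4 did not pass without set 13-2, 42-2 second, 42-3 second, 6-2, 6-3 or G45-2, where the limma adjusted p was 0.0683 to 0.133, nor under 6 of the other alternatives, among them the fit without the block (adjusted p = 0.105).

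The other metabolic lists had no gene past the threshold under knockdown, in either direction. These were 10 tested genes for other isoforms of glycolytic enzymes, 5 for other glucose transporters, 10 of the pentose phosphate pathway, 11 for the use of pyruvate in mitochondria, 6 for lactate and proton transport, 13 of gluconeogenesis and glycogen and 9 of the serine and glycerol branches. Of each, the genes of smallest p were Ldhd (-1.47) and Bpgm (-0.98), Slc2a9 (0.66) and Slc2a6 (-0.79), Tkt (-0.41) and Shpk (-0.75), Pdk4 (-1.96) and Pdk2 (-1.22), Car2 (-2.86) and Bsg (-0.71), Pgm2 (-0.71) and G6pc3 (-0.64), and Gpd1 (-2.16) and Hkdc1 (-1.19), all as log2 changes with limma adjusted p of 0.101 or more. Bsg, or basigin, is the chaperone of Slc16a3. The fitted knockdown change of the 8 proliferation markers was above 0 in 8 of 8, with 0 past the threshold. The sets differed, as their sum was lower in 42-3 first (828 against 1742 CPM) and 42-3 second (1293 against 1500 CPM). In the interaction 8 of 8 had the lower change in lung sets (median -1.70), with 0 past the threshold. Of these 7 had an unadjusted limma p under 0.05, against 19.7% of all genes. Mki67 averaged 242 ± 84.0 CPM in knockdown libraries and 76.7 ± 32.5 CPM in NT controls (1.60, SE 0.28, limma adjusted p = 0.0692). The fitted change of the 8 epithelial markers was below 0 in 8 of 8, again with 0 past the threshold, though their sum was higher in 13-2 (5603 against 2276 CPM). The part of these shifts in the values above was not tested.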

How the data were processed

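Total RNA (1.3 µg a library) was sequenced from 18 libraries after a TruSeq preparation, per the labels' protocols. The authors deposited CPM values (counts scaled to library size) for 16383 genes; reads were placed on mm9, as the submitters' processing notes name it, and aligner, counter, strand setting and filters were not given in the sources used here. All values (100%) were whole multiples of 1 read within 0.01 reads, which gave the depths. Groups, lines and hairpins follow the labels; a culture set pairs the libraries of one cell line, and lines with 2 controls were divided by library code. Deviations of a knockdown library and its control from their group means correlated at -0.36 to 0.70 (median 0.02; 4 of 10 above 0.1). No pair of libraries was a duplicate (smallest chi-square per degree of freedom 33.0 over genes with at least 20 reads).

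Genes that reached 1 CPM in 4 or more libraries were fitted with limma 3.58.1 (trend, two-sided, R 4.3.3) on log2(CPM + 1), which understates changes of low genes, with the culture set as block and the mean of both hairpins as the knockdown contrast. The interaction added site, and lung and liver were compared on line means. A difference of at least 2-fold in a single library was counted on the same scale. edgeR 4.0.16 (quasi-likelihood) on recovered reads, other pseudocounts, filters, scalings, blocks and left-out sets were alternatives. The limma script was tested on simulated data. Tables and exact tests used scipy 1.17.1 and pandas 2.3.3 under Python 3.11.15, and plots matplotlib 3.10.9.

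The genes, lists and identity transcripts (2 of 7 at 10-fold, where the higher library reaches 10 CPM) were chosen with earlier results of these data known. Named are the genes past a threshold in any comparison, the 2 of smallest p in each role, the 4 of smallest p for interaction and site, the hexokinase and lactate dehydrogenase isoforms, and up to 4, or the 2 of smallest p, of each outside list. Genes named for single sets were chosen after their values were seen. A part of the genotype labels is not reported here.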

Additional observations from a re-analysis of the deposited data

Results flagged for a closer look

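Eno2 is flagged because its knockdown effect differs between lung and liver sets, by 4.17 on the log2(CPM + 1) scale in the interaction test. Single libraries far from the rest of their group, on log2(CPM + 1), were found 4 times in 114 gene and group combinations, and chance flags about 1 in 20. Gapdh was low in the 6-2 NT control (2.01 CPM), and Pdk1, which inhibits pyruvate dehydrogenase, was high in the 6-3 NT control (197 CPM). Car9 (11.7 CPM) and Car12 (2.36 CPM) were high in G45-2 shRNA 2 among the 4 shRNA 2 libraries.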

How the results depend on the processing

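The count of genes called under knockdown was 0 under each of 21 alternatives, including the fit without the replicate block that pairs libraries by line (0), and likewise for shRNA 1, shRNA 2 and the hairpins (0 in each); leaving out each set in turn gave 0 to 0. The interaction count was 1 with any one set left out (1 to 1) and 0 without the replicate block or without sets 6-3 and 13-2. The lung and liver count was 0 with any one line left out (0 to 0) and 1, Bnip3, with control libraries and a correlation within line. The Hk2 to Hk1 change was -0.44 to -0.12 with one set left out and -0.63 (exact permutation p = 0.0313) without sets 6-3 and 13-2, -0.03 (exact permutation p = 0.844) with the cell line as unit and -0.05 (exact permutation p = 0.750) without the 5 sets; the Ldha to Ldhb change was 0.32 to 1.29. The cause was not tested in these cases. The Eno2 difference between lung and liver controls was not followed under the alternatives. No other fitted change of a single gene given with its value turned direction under the alternatives run, but uncalled ones moved in size, such as Pdk4 (-3.27 to -0.51) and Tkt (-0.55 to -0.09). Mki67 passed with the cell line as block (adjusted p 0.0404), without the replicate block (0.0242) and without 42-3 first (0.0341). Without the block Eno2 and Ak4 lost their interaction calls (both adjusted p = 0.105), and over all genes 84 were called under knockdown, against 5 with it, and 4 for the interaction, against 65 with it. Depth limits genes near 3 reads, such as Eno2 in lung controls and Ldhb, and the knockdown fits rest on 18 libraries in 8 sets. Neither the interaction without the 5 or 6 sets nor edgeR for lung against liver was run, since no lung set would be left and line means are not counts.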
